A study of Mus musculus with 2 samples.

Results

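Nuclear receptors and the coregulators and chaperones of steroid receptors were read on 2 oligonucleotide arrays of mouse uterine stromal cells. The 50 genes were chosen by name: nuclear receptors without the immediate-early Nr4a group, the coactivators Ncoa1, Ncoa2 and Ncoa3, the corepressors Ncor1 and Nrip1, and the chaperones Fkbp4 and Fkbp5. Of these, 47 had at least 1 probe set annotated to exactly 1 gene, among 18193 such genes on the array, and Ncor1, Nr1h2 and Nr2e3 were not analysed here. The Hand2-null group was made by crossing mice with a floxed Hand2 gene to PRcre mice, and the control group is labelled Hand2 Floxed. Both groups are labelled with a mixed C57BL/6 and SV129 background that names Prcre, and the labels do not say further whether control mice carried the Cre allele. In PRcre mice Cre is expressed from the Pgr locus, so recombination follows cells that express Pgr, which in the uterus are not only those of the stroma. Cells were taken on day 4 of pregnancy, left to attach to plates for a short time before RNA was extracted, and the RNA was pooled by genotype onto 1 array each. The series design gives 5 mice per genotype and the extraction protocol 4. With 1 array per group there is no replicate, no test and no error of a difference.

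Nuclear receptors are transcription factors, many of which are switched by a small lipid-soluble ligand such as a steroid, a retinoid or thyroid hormone. Receptors for retinoids and thyroid hormone can sit on DNA without ligand, bound to corepressors. Steroid receptors wait in a complex with HSP90 and immunophilins such as FKBP4 and FKBP5, and once bound to DNA they recruit coactivators of the p160 family or corepressors. In the uterus around implantation, ovarian estrogen and progesterone act through ESR1 and PGR in epithelium and stroma, and mice lacking Pgr, Nr2f2 in the uterus, Ncoa2 in Pgr-expressing cells or Fkbp4 are known for failed implantation or decidualization.

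Values are MAS5 signals, a linear array intensity scaled to the same trimmed mean on both arrays. A floor was set at the 60th percentile of each array, 67.5 in the Hand2-null and 64.2 in the control array, and a gene was measured if a probe set reached it on at least 1 array. The brightest of the probe sets that did so, by the mean log2 signal of both arrays, stood for its gene. Ratios are log2 of the Hand2-null over the control signal after flooring, and signals of different genes are not set against each other, since probe sets differ in brightness for the same amount of RNA. Of the 10376 measured genes the middle 95% had log2 ratios between -0.66 and 0.93. Within a gene, the log2 ratios of its probe sets scattered with an SD of 0.22 (4065 genes), which measures probe disagreement and leaves out variation between mice. Hand2 itself had a signal of 38.5 in the Hand2-null array, which is under the floor, and 1545 in the control array by its bright probe set, at least 22.9-fold lower. Of 11 smooth muscle markers, 11 had the higher signal in Hand2-null cells, with a median log2 ratio of 1.36 and summed signals of 44919 in the Hand2-null and 20109 in the control array. Among them Myocd reached the floor in the Hand2-null array alone and had to be higher, and Synpo2 had another probe set at -0.47. Of 4 mesothelial markers, with summed signals of 598 and 232, 3 reached the floor in the Hand2-null array alone and so had to be higher, and Upk3b, above it on both, was at 1.42. Immediate-early and heat-shock genes were higher for 10 of 11 with a median of 0.49 and summed signals of 41763 and 32880. Epithelial markers were higher for 9 of 13 genes with a median of 0.20 and summed signals of 10703 and 9954, and stromal markers for 4 of 9 with a median of -0.20 and summed signals of 42887 and 38581, the Hand2-null array first in each pair. No marker was listed at 0. Bright probe sets weigh most in these sums. The stromal sum was higher in the Hand2-null array through bright genes such as Dcn, with 11069 and 9108, and Lum, with 6262 and 3912. Of the 9 stromal markers 5 were nonetheless lower. The part of these cells and of cell handling in the values below was not tested, and in bulk RNA fewer cells of a type cannot be told apart from less RNA per cell.

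No member reached a 2-fold difference in either direction. Across all measured genes, the Hand2-null signal was the higher by 2-fold or more in 1.99% and the lower by as much in 0.742%, so that a set of 24 measured genes with 0 calls lies near the background. Of the 47 members, 24 were measured and 22 reached the floor on both arrays. All 24 lay inside the middle 95% of measured genes. Among them 13 were higher and 11 lower and the median was 0.03 (log2 ratio), where 4643 of all measured genes were higher and 5733 lower and the median was -0.03. Nr5a2 and Nr6a1 could come out lower only, and the 22 above the floor on both arrays had 13 higher and 9 lower with a median of 0.06. The split of the 24 moved to 17 and 7 when ratios were centred on the median gene. Centring raised every ratio by the same amount and set the median of all measured genes to 0. After loess the split was 16 and 8, where the median of all measured genes was -0.02. The 3 members at least 1.5-fold higher were Rora, Esrra and Nr2f1, beside 6.21% of all measured genes at that threshold, and 0 were at least 1.5-fold lower, beside 3.32%.

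**Figure D1:**
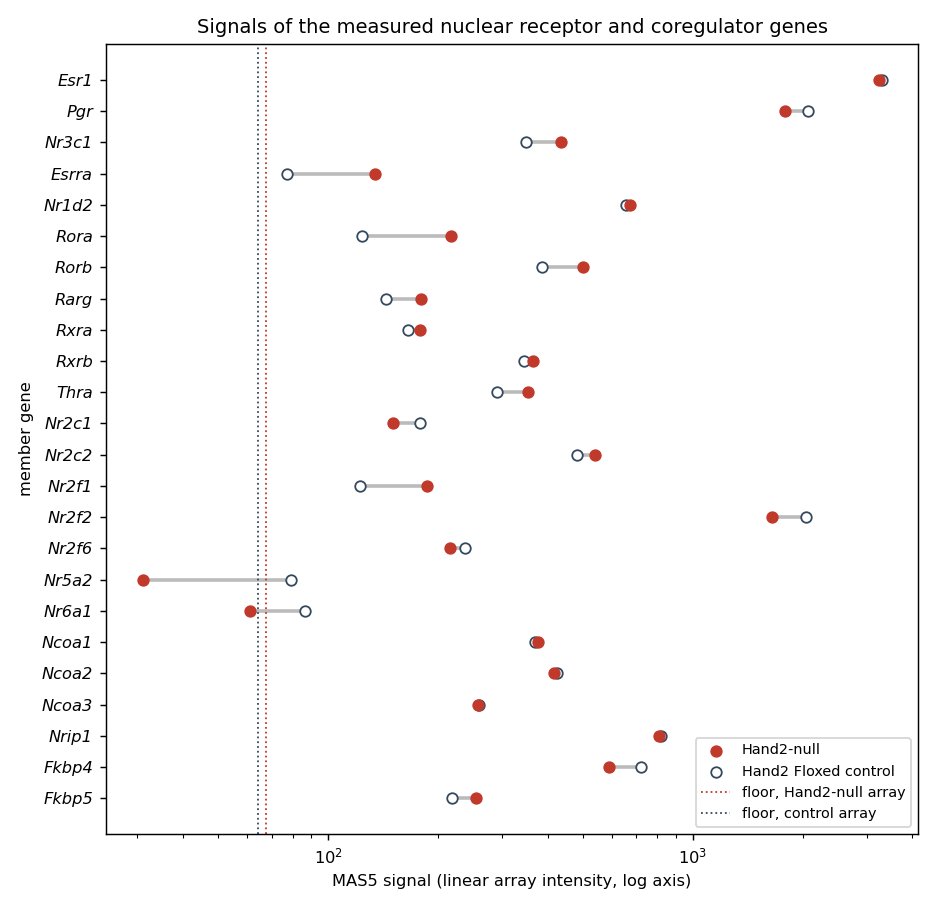
MAS5 signals (log axis) of the 24 measured members, each by its brightest measured probe set, with filled points for the Hand2-null array, open points for the Hand2 Floxed control array and dotted lines at the floors of 67.5 and 64.2. The widest gaps above the floor are those of Rora, Esrra and Nr2f1, and the Hand2-null signals of Nr5a2 and Nr6a1 lie under the floor.

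As sequence context for the receptors described next, the RefSeq windows of 250 bases before to 50 bases after the start are printed for the progesterone receptor, for the clock receptors Nr1d2 and Rora, and for the paralogues Nr2f1 and Nr2f2. They are in build GRCm38.p6, 5′ to 3′ on the strand of the gene, with capitals for AGGTCA, the core sequence that many nuclear receptors bind, and for CATCTG, a form of the CANNTG E-box of basic helix-loop-helix factors such as HAND2, each searched on both strands. Nr2f1 had 2 windows, and the one with a match is shown.
Pgr, chr9:8899583-8899882, plus strand: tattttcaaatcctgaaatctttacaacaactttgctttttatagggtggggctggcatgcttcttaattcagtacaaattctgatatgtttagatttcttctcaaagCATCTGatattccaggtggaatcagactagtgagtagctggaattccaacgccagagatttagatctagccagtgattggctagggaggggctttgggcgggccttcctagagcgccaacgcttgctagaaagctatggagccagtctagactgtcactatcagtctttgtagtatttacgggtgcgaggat
Nr1d2, chr14:18239057-18239356, minus strand: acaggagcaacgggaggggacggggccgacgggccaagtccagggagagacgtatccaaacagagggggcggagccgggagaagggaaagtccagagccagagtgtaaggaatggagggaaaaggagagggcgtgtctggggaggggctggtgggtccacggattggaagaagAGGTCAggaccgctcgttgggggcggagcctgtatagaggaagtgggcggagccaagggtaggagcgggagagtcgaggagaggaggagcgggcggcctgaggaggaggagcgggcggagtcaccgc
Rora, chr9:68653536-68653835, plus strand: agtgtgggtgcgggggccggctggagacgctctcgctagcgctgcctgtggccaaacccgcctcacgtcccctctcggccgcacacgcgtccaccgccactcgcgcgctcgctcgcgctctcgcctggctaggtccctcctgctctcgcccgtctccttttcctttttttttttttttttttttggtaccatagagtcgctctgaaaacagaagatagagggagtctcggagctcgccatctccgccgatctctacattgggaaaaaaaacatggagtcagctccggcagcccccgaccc
Nr2f1, chr13:78196400-78196699, minus strand: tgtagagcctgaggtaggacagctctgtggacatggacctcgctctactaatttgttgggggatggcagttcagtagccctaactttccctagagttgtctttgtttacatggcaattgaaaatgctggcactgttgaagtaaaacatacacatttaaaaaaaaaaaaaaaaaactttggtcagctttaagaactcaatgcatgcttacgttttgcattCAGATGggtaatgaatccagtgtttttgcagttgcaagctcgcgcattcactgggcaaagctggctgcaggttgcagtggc
Nr2f2, chr7:70366697-70366996, minus strand: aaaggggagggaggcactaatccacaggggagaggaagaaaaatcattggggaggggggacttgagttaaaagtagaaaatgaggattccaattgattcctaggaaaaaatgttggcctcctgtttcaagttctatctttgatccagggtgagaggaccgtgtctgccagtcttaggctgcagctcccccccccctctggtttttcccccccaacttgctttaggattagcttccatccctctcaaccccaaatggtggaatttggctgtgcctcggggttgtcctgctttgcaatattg
AGGTCA was found 1 time in the Nr1d2 window, and CATCTG 1 time in the Pgr window and, as CAGATG on the other strand, 1 time in the Nr2f1 window. The Rora and Nr2f2 windows held neither of them, and CANNTG, which takes in CATCTG, occurred 2 times in the Nr2f2 window and 0 times in that of Rora. Over all members 44 genes had 67 windows, of which 17.9% held AGGTCA, against 16.3% of all 32851 windows. CATCTG was in 10.4% of the member windows and 17.2% of all windows, and CANNTG in 74.6% and 72.3%. These are matches of letters in short windows and say nothing of binding.

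The steroid receptors measured were Esr1, Pgr and Nr3c1. Esr1, the main estrogen receptor of the uterus, had signals of 3235 in the Hand2-null and 3292 in the control array by its brightest probe set, a log2 ratio of -0.03, and 1531 and 1147 by the other, a ratio of 0.42. The probe sets of Esr1 thus gave different answers, the first near no difference and the second higher in the Hand2-null array. Pgr, the progesterone receptor, had 1791 in the Hand2-null and 2076 in the control array, a ratio of -0.21, and its next probe set had 127 and 146, a ratio of -0.20. Its dimmest probe set had 71.8 in the Hand2-null array, just over the floor, and 32.8, under it, in the control array. Being measured through the Hand2-null array alone, that probe set had to come out higher. Cre is expressed from the Pgr locus in PRcre mice, and the labels do not settle whether control mice carried it. The part of the driver allele in the Pgr ratios was not tested and cannot be told apart from that of Hand2 loss. Nr3c1, the glucocorticoid receptor, was higher by all 3 measured probe sets. Their signals were 436, 444 and 211 in the Hand2-null array and 349, 287 and 173 in the control array, with ratios of 0.32, 0.63 and 0.28. Esr2, the second estrogen receptor, with signals of up to 1.93, and Nr3c2, the mineralocorticoid receptor, with up to 27.6, were under the floor on both arrays.

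Among estrogen-related receptors, orphan receptors that act on genes of mitochondrial energy metabolism, Esrra was measured and Esrrb and Esrrg were under the floor. Esrra had a signal of 134 in the Hand2-null and 76.9 in the control array, 1.75-fold higher with a log2 ratio of 0.80 (the 96.3rd percentile of measured genes). That value comes from a single probe set whose control signal was near the floor. Its other probe set was under the floor with 34.6 in the Hand2-null and 24.6 in the control array, and under a 75th percentile floor Esrra was no longer measured.

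The receptors that drive or repress clock genes through a shared DNA element differed among themselves. Rora, an activator of Arntl, had a signal of 217 in the Hand2-null and 124 in the control array by its brightest probe set, a log2 ratio of 0.81. The other measured probe sets had 118, 88.5, 75.6 and 68.2 in the Hand2-null array and 90.0, 56.9, 66.4 and 50.1 in the control array. Each of the 5 was higher in Hand2-null cells, with ratios from 0.09 to 0.81, and 2 of them reached the floor there alone and had to be higher. The ratio of Rora was 0.41 under a 75th percentile floor and 0.39 as the mean over its probe sets. Rorb, a related activator known mainly from retina and brain, had 500.2 in the Hand2-null and 385 in the control array, a ratio of 0.38, but 283 and 336 by its second probe set and 131 and 132 by the dimmest. Those gave ratios of -0.25 and -0.01, so Rorb has no settled direction. Nr1d2, the repressor REV-ERB beta, had 671 in the Hand2-null and 657 in the control array, a ratio of 0.03, and Nr1d1, its paralogue REV-ERB alpha, was just under the floor with 63.4 and 56.2.

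**Figure D2:**
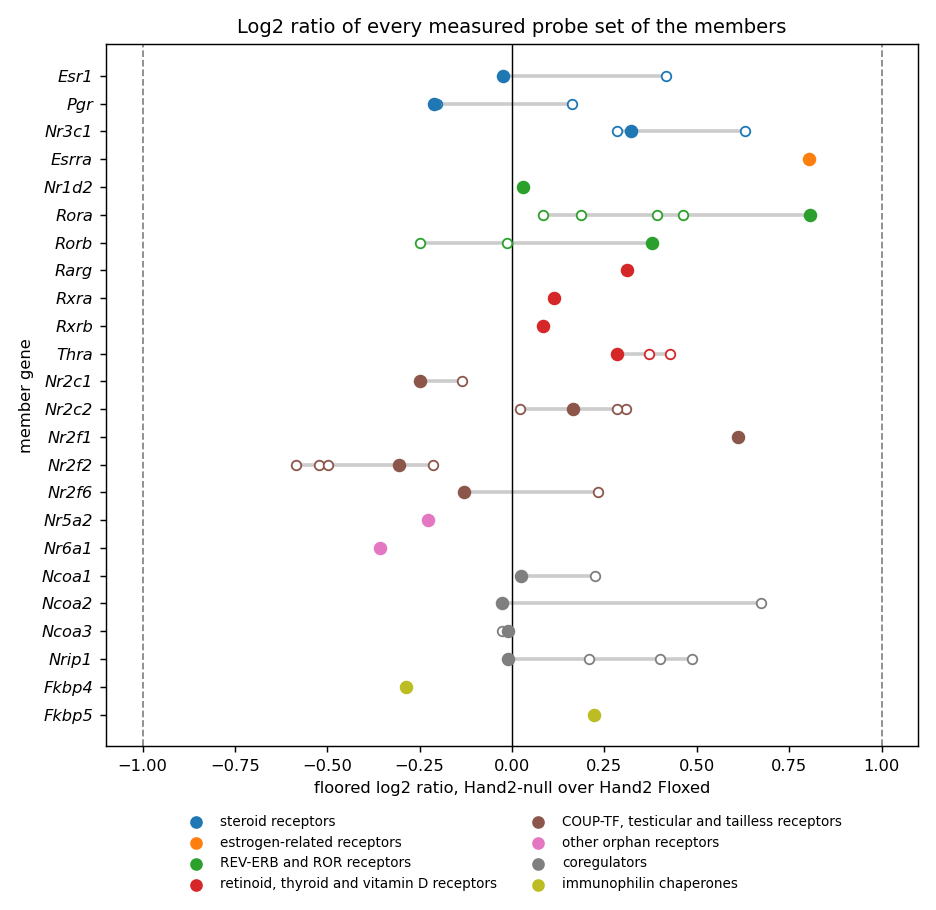
Floored log2 ratios of Hand2-null over Hand2 Floxed signals for every measured probe set of the 24 members, coloured by role, with filled points for the brightest measured probe set of each gene, open points for the others and dashed lines at a 2-fold difference. All points of Rora, Nr3c1, Thra and Nr2c2 lie above 0 and all points of Nr2f2 below it, while Esr1, Pgr, Rorb, Nr2f6, Ncoa2 and Nrip1 have points on both sides, and no point reaches a dashed line. Points that reached the floor in the Hand2-null array alone had to lie above 0. Among these are the only points of Pgr and of Ncoa2 above 0.

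Receptors for retinoids and thyroid hormone pair with RXR partners on DNA. Thra, the thyroid hormone receptor alpha gene, had signals of 353, 214 and 193 in the Hand2-null array and 290, 159 and 149 in the control array by 3 probe sets. Each of the 3 was higher in Hand2-null cells, with ratios of 0.28, 0.43 and 0.37. Rarg, a retinoic acid receptor, had 179 in the Hand2-null and 145 in the control array, a ratio of 0.31. The partners Rxra, with 179 and 166, and Rxrb, with 365 and 344, Hand2-null array first, had ratios of 0.11 and 0.08. Rara, Rarb, Rxrg, Thrb and the vitamin D receptor gene Vdr were under the floor on both arrays. All 4 measured genes of this group were on the higher side, each by less than 1.5-fold, where 4643 of all 10376 measured genes were higher. The ratios of Rxra and Rxrb were smaller than the probe set SD of 0.22. That of Rarg rests on 1 measured probe set and was 0.14 under a 75th percentile floor.

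The COUP transcription factors Nr2f1 and Nr2f2, orphan receptors of mesenchyme, lay on opposite sides. Nr2f2, a target of epithelial hedgehog signals in the uterine stroma, had 1654 in the Hand2-null and 2045 in the control array by its brightest probe set, a log2 ratio of -0.31. Its other measured probe sets had 438, 370, 362 and 118 in the Hand2-null array and 509, 532, 511 and 178 in the control array. All 5 were lower in the Hand2-null array, with ratios from -0.59 to -0.22. Nr2f1 had 186 in the Hand2-null and 122 in the control array, 1.53-fold higher with a ratio of 0.61, on its single probe set, and 0.19 under a 75th percentile floor. Nr2f6, a further relative, had ratios of -0.13 and 0.23 by its probe sets. The testicular receptors, which bind the same kind of DNA repeat as retinoid receptors, also split. Nr2c1 was lower by both measured probe sets, with 151 and 85.9 in the Hand2-null and 179 and 94.4 in the control array and ratios of -0.25 and -0.14. Nr2c2 was higher by all 4, of which 1 reached the floor in the Hand2-null array alone and had to be higher, with ratios from 0.02 to 0.31 and signals of 540 in the Hand2-null and 481 in the control array by the brightest. Nr2e1 was under the floor on both arrays.

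Across the array, 1466 genes had at least 3 measured probe sets, and in 49.6% of them all probe sets lay on the same side of 0. Of the 8 members with at least 3, the 5 that did were Nr3c1, Rora, Thra and Nr2c2 on the higher side and Nr2f2 on the lower side. For Rora 2 of the 5 probe sets and for Nr2c2 1 of the 4 had no other side to fall on, so the count supports nothing. Probe sets of a gene share the same 2 RNA pools, so their agreement does not stand for repeat samples.

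Of the remaining orphan receptors, Nr6a1, the germ cell nuclear factor, had a signal of 61.1 in the Hand2-null array, which is under the floor, and 86.5 in the control array. Nr5a2, the receptor LRH-1, had 31.0 in the Hand2-null array, also under the floor, and 79.0 in the control array. Both were measured through the control array alone, so they had to come out lower, by at least 1.28-fold and at least 1.17-fold. Another Nr5a2 probe set, brighter by mean log2 signal, was under the floor on both arrays, with 58.8 in the Hand2-null and 54.9 in the control array. For that reason it did not stand for the gene. Nr0b1, Nr0b2 and Nr5a1, known for control of steroid and bile acid synthesis, were under the floor. So were all 9 lipid and xenobiotic sensors with a probe set, namely Ppara, Ppard, Pparg, Nr1h3, Nr1h4, Nr1i2, Nr1i3, Hnf4a and Hnf4g. Among them Nr1h3, an oxysterol receptor, came nearest to the floor, with 59.3 in the Hand2-null and 60.02 in the control array. In all, 23 members stayed under the floor with top signals between 1.93 and 63.4, and no fold is given for them.

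The coregulators were nearly level by their brightest probe sets. Ncoa1, Ncoa2 and Ncoa3, the p160 coactivators, had signals of 376, 417 and 258 in the Hand2-null array and 370, 425 and 260 in the control array, with log2 ratios of 0.02, -0.03 and -0.01. Nrip1, the corepressor RIP140, had 809 in the Hand2-null and 816 in the control array, a ratio of -0.01. The other probe sets of these genes were less even. The second Ncoa1 probe set showed 0.23, and that of Ncoa2 no less than 0.68 with 103 in the Hand2-null array and 63.1, under the floor, in the control array. This Ncoa2 probe set had to come out higher. The other 3 of Nrip1 showed 0.40, 0.21 and 0.49, the first of them with 899.6 in the Hand2-null and 682 in the control array, whereas the second of Ncoa3 showed -0.03. The chaperones pointed in opposite directions. Fkbp4, the immunophilin FKBP52 that promotes progesterone receptor activity, had 590 in the Hand2-null and 720.3 in the control array, a ratio of -0.29. Fkbp5, the immunophilin FKBP51 that restrains the glucocorticoid receptor and is itself induced by glucocorticoid and progesterone, had 255 in the Hand2-null and 219 in the control array, a ratio of 0.22. Each rests on 1 measured probe set.

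**Figure D3:**
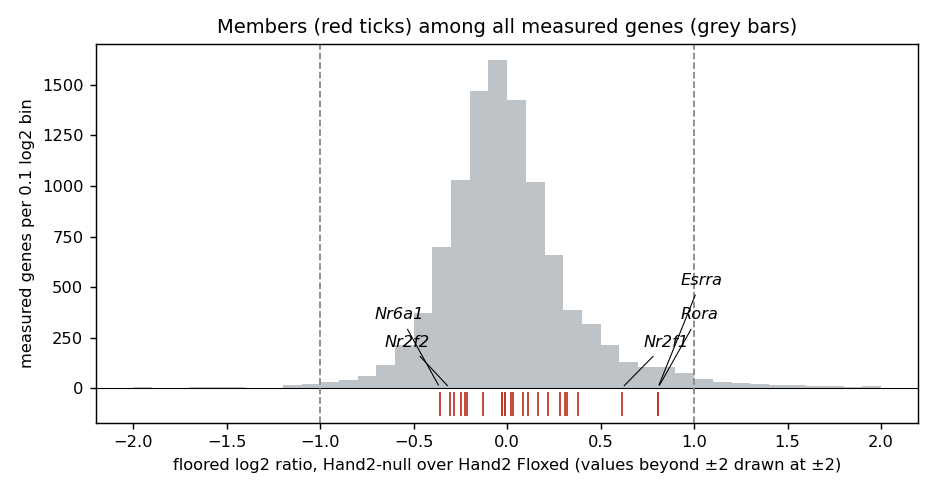
Histogram of floored log2 ratios of Hand2-null over Hand2 Floxed signals for all 10376 measured genes (grey bars, genes per bin), with a red tick under the axis for each of the 24 members and dashed lines at a 2-fold difference. The members run from -0.36 for Nr6a1, a bound, to 0.81 for Rora, inside the dashed lines.

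Other genes of the same machinery were read in the same way. Of 26 further coactivators 11 were higher and 15 lower, none by 2-fold, and their median was -0.01 (log2 ratio). Ppargc1b, the coactivator PGC-1 beta of estrogen-related receptors, had the highest ratio among them, with 118 in the Hand2-null array and 52.4, under the floor, in the control array, at least 1.84-fold higher. The arginine methyltransferase gene Prmt1 was at -0.46, Pnrc1 at 0.30 and Ppargc1a, a relative of Ppargc1b, at no less than 0.29. Both Ppargc1b and Ppargc1a reached the floor in the Hand2-null array alone, so 2 of the 11 had to be higher. Of 14 further corepressors 5 were higher and 9 lower, the median being -0.06. The prohibitin Phb2, a repressor of estrogen receptor activity, was at -0.51 and lower by all 4 probe sets, which ranged widely, from -2.07 to -0.41. The histone deacetylase Hdac2 was at -0.48, Safb2 at 0.31 and Rcor1 at -0.27. Of 13 chaperones and cochaperones 4 were higher and 9 lower, the median being -0.07, from the HSP90 activator Ahsa1 at -0.22 to the HSP40 gene Dnajb1 at 0.21. Hspa8 and Stip1 were at -0.18 and -0.15.

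Genes known to respond to the receptors were read beside them, as counts without a test. They were listed with earlier results of these arrays known, so their direction is no independent evidence. Of 15 estrogen-responsive genes 12 were higher and 3 lower, and their median log2 ratio was 0.33. Esr1 was at -0.03 by its brightest probe set and at 0.42 by its other measured one. Of the 15, 7 were at least 2-fold higher, beside 1.99% of all measured genes. The 7 were Inhbb at 2.61, with a second probe set at 0.39, Lcn2 at 2.22, Greb1 at 1.499, Ltf at 1.49, Clca1 at no less than 1.27, Ckb at 1.25 and Cdkn1a at 1.06. Clca1 reached the floor in the Hand2-null array alone and had to be higher. Ckb, the brain-type creatine kinase, had 3714 in the Hand2-null and 1557 in the control array. Igf1, a growth factor that estrogen induces in uterine stroma, was lower by all 4 probe sets, with 3888 and 6144 by the brightest and ratios from -1.17 to -0.66. The other lower genes were Myc at -0.71 and Aqp5 at -0.33, each by 1 measured probe set. Of 10 progesterone-responsive genes 3 were higher and 7 lower, the median being -0.27, while Pgr, the locus that drives Cre, was at -0.21. Of the 10, 2 were at least 2-fold lower, beside 0.742% of all measured genes. The activin antagonist Fst was at -1.68, Klf15 at -1.148, Ptch1 at -0.85 and Errfi1, a feedback inhibitor of the EGF receptor, at 0.50. Of 15 glucocorticoid-responsive genes 9 were higher and 6 lower, the median being 0.18, beside Nr3c1 at 0.32. Pdk4, among the 9 higher, reached the floor in the Hand2-null array alone and had to be higher. The kinase Sgk1 was at 1.201, Dusp1, an ERK and p38 phosphatase, at 0.56, Errfi1 at 0.50 and Zbtb16 at -0.49. The probe sets of Zbtb16 ran from -1.22 to -0.28. Dusp1 is also on the list of genes that respond to cell handling, and Errfi1 on that of progesterone. The cell handling list also holds Fos, which at 0.19 is among the 12 higher estrogen-responsive genes.

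**Figure D4:**
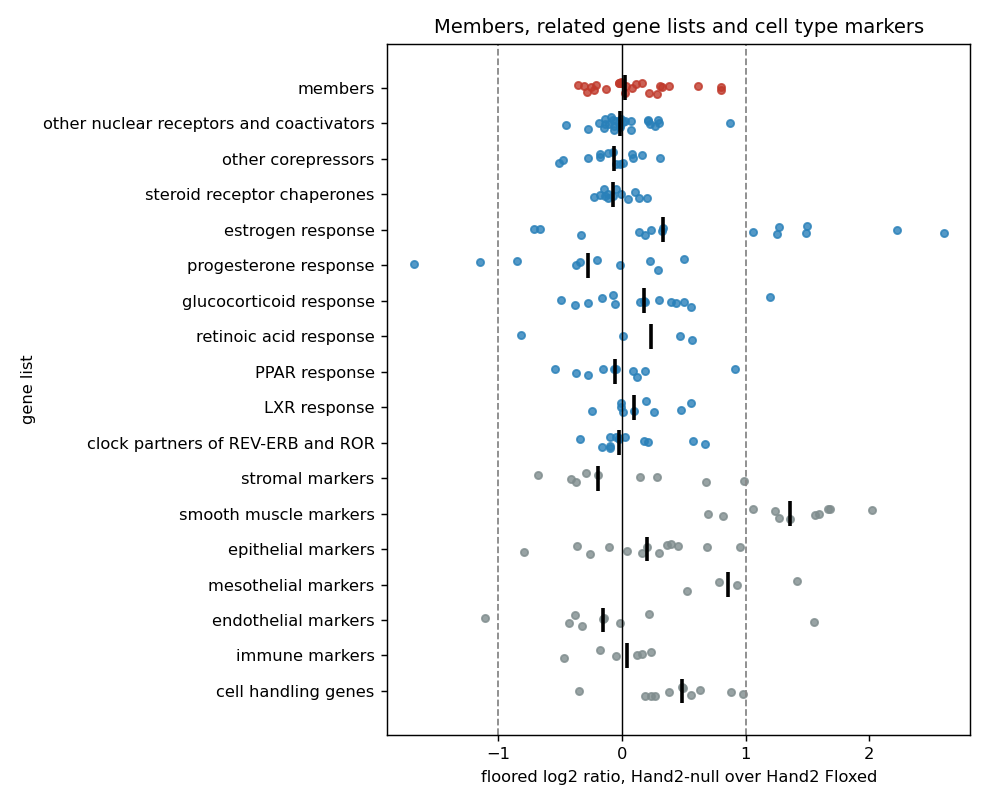
Floored log2 ratios of Hand2-null over Hand2 Floxed signals for single genes (points) of the members (red), of lists of related genes (blue) and of marker lists (grey), with black bars at list medians and dashed lines at a 2-fold difference. The members centre near 0 with a median of 0.03, estrogen-responsive genes reach furthest to the higher side among the blue lists, and all 11 smooth muscle markers lie above 0. Of these markers Myocd, under the floor in the control array, had to lie there. The vitamin D list, with S100g at -2.32 as its only measured gene, is not drawn.

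Genes that respond to the other receptors were read last. Of 13 clock genes 5 were higher and 8 lower, the median being -0.03, beside Rora at 0.81. Arntl, the gene that ROR receptors activate and REV-ERB receptors repress, had 195 in the Hand2-null and 168 in the control array, a ratio of 0.21. Bhlhe40, a repressor of the clock, was at 0.67, Per2 at 0.57 and Tef at -0.34. Per3 and Hlf, among the 8 lower, reached the floor in the control array alone and had to be lower. Of 4 retinoic acid-responsive genes 3 were higher, with Dhrs3, a retinaldehyde reductase, at 0.57, Cyp26b1, which breaks retinoic acid down, at no less than 0.47, Tgm2 at 0.01 and Stra6, the retinol transporter, at -0.82. The median of that list turned from 0.24 to -0.18 without probe sets that can cross-hybridize. Cyp26b1 reached the floor in the Hand2-null array alone and had to be higher. Of 10 PPAR-responsive genes 4 were higher and 6 lower, with lipoprotein lipase, Lpl, at 0.91, the fatty acid transporter Cd36 at -0.54, Acadl at -0.37 and Angptl4 at -0.27. Pdk4, among the 4 higher, reached the floor in the Hand2-null array alone and had to be higher. Of 9 LXR-responsive genes 6 were higher and 3 lower, with the desaturase Scd1 at 0.56, Mylip at 0.48, the cholesterol exporter Abca1 at 0.26 and Abcg1 at -0.24. Among 4 vitamin D-responsive genes only S100g, the calbindin gene that estrogen also controls in the uterus, was measured, at -2.32, while Vdr had signals of 17.0 and 20.5 in the Hand2-null array and 36.5 and 28.4 in the control array by its probe sets, all under the floor.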

How the data were processed

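Transcripts were measured in 2 pools of RNA, 1 array per genotype. Per the submitters' processing notes, the authors deposited MAS5 signals, a linear array intensity, from Affymetrix Expression Console version 1. The mean after trimming 2% at each end was 150.001 on both arrays. MAS5 takes off the mismatch signal, so dim probe sets give unsteady ratios. The genome build was not given in the sources used here.

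Of 45101 probe sets 64 controls were left out, and 34945 of the rest had 1 gene symbol in the platform annotation. Signals under the floor of their array, the 60th percentile of non-control probe sets, were set to it before log2 was taken. A difference was counted from 2-fold up, with no test. Precision is limited by the number of arrays. Of 222 entries on 18 related lists 204 matched the array. The members and lists were chosen with earlier results of these data known. All members were named, with Hand2 as the check of the labels, and up to 4 genes with the largest ratio of each list plus those past 2-fold. Some further list genes were named for context, among them the lower estrogen-responsive genes. The procedure was tested on simulated arrays. Their noise was a chosen setting without variation between mice, so they give no error for the differences described here. Alternatives covered scaling, floor, probe set choice and threshold. Promoters came from RefSeq (GRCm38.p6). Python 3.11.15, numpy 2.4.6, pandas 2.3.3 and statsmodels 0.14.6 were used.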

Additional observations from a re-analysis of the deposited data

How the results depend on the processing

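The counts of 0 members 2-fold higher or more and 0 lower by as much held under 8 of the 9 alternatives for scaling, floor and probe set choice and at a 3-fold threshold. With no floor they became 3 (Esr2, Rxrg and Pparg) and 5 (Vdr, Nr1i3, Nr2e1, Nr0b1 and Nr0b2), none of them above the floor on either array, where 9.05% of all genes were higher and 8.94% lower by as much, and at 1.5-fold 3 members were higher. The median log2 ratio of members ran from 0.01 to 0.12. Of the 24 measured members 18 kept their sign under the alternatives that measured them, and Esr1, Nr2f6, Nr5a2, Ncoa2, Ncoa3 and Nrip1 turned under at least 1. Over all genes, 206 higher and 77 lower became 117 and 45 under a 75th percentile floor, 117 and 40 with a pseudo-signal, and 1646 and 1626 with no floor. As a pseudo-signal the floor also took Esrra to 0.52. No paired analysis was possible because each group has 1 array, and no replicate could be left out. Signals under the floor limit what can be said of 23 members.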

Other observations

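A probe set annotated to both Ppard and a second gene had signals of 4.08 in the Hand2-null and 4.23 in the control array and was left out of the members' values. Of the 126 probe sets of members 74 were under the floor on both arrays, among them the sixth of Nr2f2, with 1.89 in the Hand2-null and 18.4 in the control array, and 4 of the 9 of Rora. Across endothelial markers, cells in which Nr2f2 is known from veins, 2 of 9 genes were higher and 7 lower; their median was -0.15 (log2 ratio), with summed signals of 2842 in the Hand2-null and 3204 in the control array. Cdh5 was at -1.11 and Cldn5 at 1.55, so these markers did not move together. Immune markers were higher for 3 of 6 measured genes, with a median of 0.04.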
